A study of Mus musculus with 18 samples.

Results

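Hal, Uroc1, Amdhd1 and Ftcd encode the liver enzymes that break down histidine, and they are 4 of the 12394 genes measured with their own probe sets. They were found by gene symbol and had 5 of the 22690 probe sets, 1 each for Hal, Amdhd1 and Ftcd and 2 for Uroc1. These genes were selected with results of the same arrays known, and the contrast that led to them is not recorded. Their differences between groups are therefore given as a description, with standard errors and intervals and without a test. Hal and Amdhd1 were lower in every liver without hepatic FXR than in every wild-type (WT) liver. Ftcd was lower by a smaller margin, and Uroc1 was lower on 1 of its 2 probe sets.

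Livers of male C57BL/6J mice aged 10 to 16 weeks were profiled on 18 arrays, 3 in each of 6 groups. WT mice, liver FXR KO mice and whole-body FXR KO mice each received vehicle or GW4064. FXR (farnesoid X receptor, gene Nr1h4) is the nuclear receptor for bile acids, and GW4064 is its synthetic agonist. The labels describe 2 gavages of 150 mg/kg GW4064 or of vehicle, with the liver taken 2 hours after the last. In the liver FXR KO, floxed Nr1h4 was removed by Cre from the albumin promoter, which acts in hepatocytes, so other liver cells and other organs keep the gene. In the other knockout, the whole-body FXR KO, no organ has it. Both genotypes were compared with the same WT arrays. The labels number the replicates without saying whether each is a separate mouse or a pool, so the errors measure the spread between arrays.

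Histidine is degraded in the liver cytosol in 4 steps, 1 for each of the enzymes. Hal (histidine ammonia-lyase) removes ammonia from histidine and leaves urocanate, Uroc1 (urocanate hydratase) turns urocanate into imidazolone propionate, and Amdhd1 (imidazolonepropionase) opens the ring to give formiminoglutamate. Ftcd (formimidoyltransferase cyclodeaminase) moves the formimino group to tetrahydrofolate and releases glutamate and ammonia, which joins the route to the folate one-carbon pool. Loss of HAL in people causes histidinemia, and the same enzyme makes urocanate in the outer skin.

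The promoters of the 4 genes are shown because Hal and Amdhd1 lie side by side, on the chromosome that also carries Nr1h4, and were the members with the largest differences between genotypes. Each sequence runs from 250 bases before to 50 bases after the gene's start, 5′ to 3′ on the gene's own strand, from RefSeq on build GRCm38.p6. All 4 members were matched by symbol. Capitals mark the nuclear receptor half-site AGGTCA, which reads TGACCT when it lies on the opposite strand.
Hal (chr10:93488518-93488817, + strand): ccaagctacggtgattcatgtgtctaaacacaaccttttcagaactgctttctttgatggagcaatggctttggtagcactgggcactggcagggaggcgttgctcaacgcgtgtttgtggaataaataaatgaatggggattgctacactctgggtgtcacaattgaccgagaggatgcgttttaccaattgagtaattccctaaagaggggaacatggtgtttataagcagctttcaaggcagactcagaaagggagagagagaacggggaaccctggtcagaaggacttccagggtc
Uroc1 (chr6:90333039-90333338, + strand): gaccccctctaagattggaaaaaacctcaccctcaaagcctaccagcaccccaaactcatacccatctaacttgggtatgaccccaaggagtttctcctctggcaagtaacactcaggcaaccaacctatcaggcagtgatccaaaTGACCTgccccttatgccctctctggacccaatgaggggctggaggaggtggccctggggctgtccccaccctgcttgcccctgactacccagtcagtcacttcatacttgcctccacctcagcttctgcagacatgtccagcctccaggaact
Amdhd1 (chr10:93539984-93540283, - strand): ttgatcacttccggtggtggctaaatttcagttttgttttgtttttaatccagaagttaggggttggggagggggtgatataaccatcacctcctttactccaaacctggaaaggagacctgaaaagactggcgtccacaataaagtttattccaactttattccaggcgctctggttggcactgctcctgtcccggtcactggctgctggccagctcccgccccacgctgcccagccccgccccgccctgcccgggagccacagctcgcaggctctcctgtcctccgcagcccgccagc
Ftcd (chr10:76575398-76575697, + strand): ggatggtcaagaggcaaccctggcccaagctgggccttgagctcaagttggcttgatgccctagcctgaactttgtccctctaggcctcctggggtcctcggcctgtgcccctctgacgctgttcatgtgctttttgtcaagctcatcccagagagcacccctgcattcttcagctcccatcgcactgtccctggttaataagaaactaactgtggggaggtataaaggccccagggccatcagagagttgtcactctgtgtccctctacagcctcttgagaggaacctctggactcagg
The half-site was found in 1 of these 4 windows. It lies in the Uroc1 promoter on the opposite strand, from base -104 to base -99 counted from the start. Among 32851 promoters of the same length, 16.26% held AGGTCA on either strand. The inverted repeat GGTCANTGACC, the layout known as IR-1 to which FXR binds with its partner RXR, was in 0 of the 4 windows and in 0.03957% of all of them. This motif contains no complete AGGTCA unless an A precedes it or a T follows it. A match describes letters only, and the absence of one says that these letters are not in this window.

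Hal and Amdhd1 are both on chromosome 10, 3.96 and 3.99 Mb from Nr1h4. They are transcribed toward each other, their 3′ ends are 6.58 kb apart, and 0 annotated genes lie between them. Ftcd is on the same chromosome, 12.9 Mb from Nr1h4. Uroc1 is on chromosome 6.

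The labels were checked first on the targeted gene. Nr1h4 was between 8.83 and 9.39 on the log2 scale in the 6 WT arrays and between 3.98 and 4.69 in the 12 knockout arrays. Hepatocyte markers (Alb, Ttr, Apoa1, Cps1 and Cyp3a11) averaged 14.40 to 14.64 in every array. Keratinocyte markers, from the skin cells that also make Hal, averaged 4.87 to 5.24, below every array median. Means of the 5 endothelial markers were 7.49 to 7.63 in the whole-body FXR KO with vehicle against 7.06 to 7.36 in WT, and those of the 5 stellate markers 7.02 to 7.11 against 6.75 to 6.93. Neither list overlapped between these groups, and both overlapped between the liver FXR KO and WT with vehicle. Means of the 4 measured Kupffer cell markers were 6.85 to 6.99 in WT with vehicle, below both the liver FXR KO at 7.03 to 7.11 and the whole-body FXR KO at 7.01 to 7.60. How often lists of such size separate at 3 against 3 arrays was not examined. Stab2 of the endothelial list and Dcn of the stellate list also lie within 10 Mb of Nr1h4. With vehicle, their log2 differences from WT were 0.45 and 0.64 in the whole-body FXR KO. In the liver FXR KO they were 0.17 and -0.16. No gene of these 3 lists was called with vehicle, and the part of the lists in the enzyme values was not tested. In whole liver, fewer cells of a type cannot be told apart from less RNA per cell. The array medians were 5.96 to 6.00. The spread of relative expression (the interquartile range of each array's differences from the median array) was wide in WT GW4064 replicate 1, at 0.259, and in whole-body FXR KO GW4064 replicate 3, at 0.231, against at most 0.197 in the other arrays. Results that include these arrays are given with and without them where that changed a call.

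Hal, which carries out the first step, had the widest gap between genotypes. Its log2 expression was 10.53, 10.80 and 11.31 in WT vehicle livers and 11.52, 11.18 and 11.00 with GW4064. The liver FXR KO arrays were at 9.17, 9.30 and 9.19 with vehicle and 8.92, 9.04 and 9.76 with GW4064. The whole-body FXR KO arrays were at 9.12, 9.20 and 9.08 with vehicle and 8.51, 8.96 and 9.69 with GW4064. All 12 knockout arrays were below all 6 WT arrays, and the 4 knockout groups overlapped with one another. The knockout groups with vehicle were tight, with SDs of 0.07 and 0.06 (n = 3 each), whereas those with GW4064 had SDs of 0.45 and 0.59.

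Hal was 3.15-fold lower in the liver FXR KO than in WT with vehicle (log2 difference -1.66 ± 0.26 SE, 95% interval of the fold 2.16 to 4.60). It was 3.36-fold lower in the whole-body FXR KO (-1.75 ± 0.26, interval 2.30 to 4.90). With GW4064 in both genotypes compared, it was 3.99-fold lower in the liver FXR KO (interval 2.73 to 5.82) and 4.52-fold lower in the whole-body FXR KO (interval 3.09 to 6.60). Counted from the lowest of the 12394 log2 differences, Hal stood at position 10 in the liver FXR KO and at position 8 in the whole-body FXR KO with vehicle.

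Amdhd1, the enzyme of the third step, was also lower in every knockout array than in every WT array, by a smaller margin. Its log2 expression was 10.20, 10.42 and 11.06 in WT vehicle livers and 10.49, 10.44 and 10.53 with GW4064. The liver FXR KO gave 9.43, 9.60 and 9.50 with vehicle and 9.54, 9.49 and 10.13 with GW4064. The whole-body FXR KO gave 9.66, 9.24 and 9.46 with vehicle and 8.83, 9.49 and 9.92 with GW4064. The highest knockout array, liver FXR KO GW4064 replicate 3 at 10.13, was just below the lowest WT array at 10.20. With vehicle, Amdhd1 was 2.07-fold lower in the liver FXR KO (-1.05 ± 0.24 SE, interval 1.46 to 2.95) and 2.15-fold lower in the whole-body FXR KO (-1.10 ± 0.24 SE, interval 1.51 to 3.06). With GW4064, it was 1.70-fold lower (interval 1.20 to 2.42) and 2.11-fold lower (interval 1.48 to 3.0).

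Ftcd, the last enzyme, was high in every array and had the narrowest spread. It read 11.31, 11.46 and 11.61 in WT vehicle livers and 11.55, 11.50 and 11.56 in WT GW4064 livers. The liver FXR KO was at 11.05, 11.13 and 11.01 with vehicle and at 11.14, 11.32 and 11.39 with GW4064. The whole-body FXR KO was at 10.78, 10.89 and 10.66 with vehicle and at 10.59, 10.92 and 10.85 with GW4064. Both whole-body FXR KO groups lay below every other array. The liver FXR KO GW4064 group overlapped with WT vehicle but not with liver FXR KO vehicle.

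With vehicle, Ftcd was 1.32-fold lower in the liver FXR KO than in WT (-0.40 ± 0.10 SE, interval 1.14 to 1.53) and 1.61-fold lower in the whole-body FXR KO (-0.69 ± 0.10 SE, interval 1.39 to 1.86). The direct difference between the whole-body and the liver FXR KO with vehicle was -0.29 ± 0.10 for Ftcd. For Hal it was -0.09 ± 0.26, for Amdhd1 -0.05 ± 0.24 and for Uroc1 -0.12 ± 0.12. Under GW4064, Ftcd was 1.19-fold lower in the liver FXR KO and 1.68-fold lower in the whole-body FXR KO than in WT.

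Uroc1, the enzyme of the second step, gave different answers on its 2 probe sets. On the brighter probe set it read 9.38, 9.23 and 9.04 in WT vehicle livers and 9.26, 9.43 and 9.14 in WT GW4064 livers. The liver FXR KO read 8.82, 8.88 and 8.88 with vehicle and 9.35, 8.95 and 9.03 with GW4064. The whole-body FXR KO read 8.76, 8.57 and 8.90 with vehicle and 8.87, 9.08 and 8.97 with GW4064. With vehicle, every knockout array was below every WT array, but groups next to each other in the order of the 6 means all overlapped. Uroc1 was 1.28-fold lower in the liver FXR KO with vehicle (-0.35 ± 0.12 SE, interval 1.08 to 1.52) and 1.39-fold lower in the whole-body FXR KO (-0.47 ± 0.12 SE, interval 1.17 to 1.65). With GW4064 in both genotypes compared, it was 1.12-fold (interval 0.95 to 1.33) and 1.24-fold lower (interval 1.04 to 1.47).

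On the second Uroc1 probe set, whose identifier ends in s_at, WT vehicle livers read 8.55, 8.35 and 8.76 and WT GW4064 livers 8.85, 8.58 and 8.80. The liver FXR KO read 8.34, 8.64 and 8.52 with vehicle and 8.86, 8.65 and 8.76 with GW4064. The whole-body FXR KO read 8.49, 8.84 and 9.14 with vehicle and 8.58, 8.88 and 8.60 with GW4064. Groups next to each other in the order of the 6 means all overlapped, and the whole-body FXR KO vehicle mean was the highest. With vehicle, the log2 difference from WT was -0.05 ± 0.15 SE in the liver FXR KO (interval -0.36 to 0.26). In the whole-body FXR KO it was 0.27 ± 0.15 (interval -0.04 to 0.58). With GW4064, these differences were 0.02 ± 0.15 and -0.05 ± 0.15. GW4064 minus vehicle was 0.19 ± 0.15 in WT, 0.26 ± 0.15 in the liver FXR KO and -0.14 ± 0.15 in the whole-body FXR KO. The s_at suffix marks a probe set that can also match other transcripts. The deviations of the 2 probe sets from their group means had a Pearson's r of 0.14 over the 18 arrays, so the lower Uroc1 level rests on 1 probe set.

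**Figure D1:**
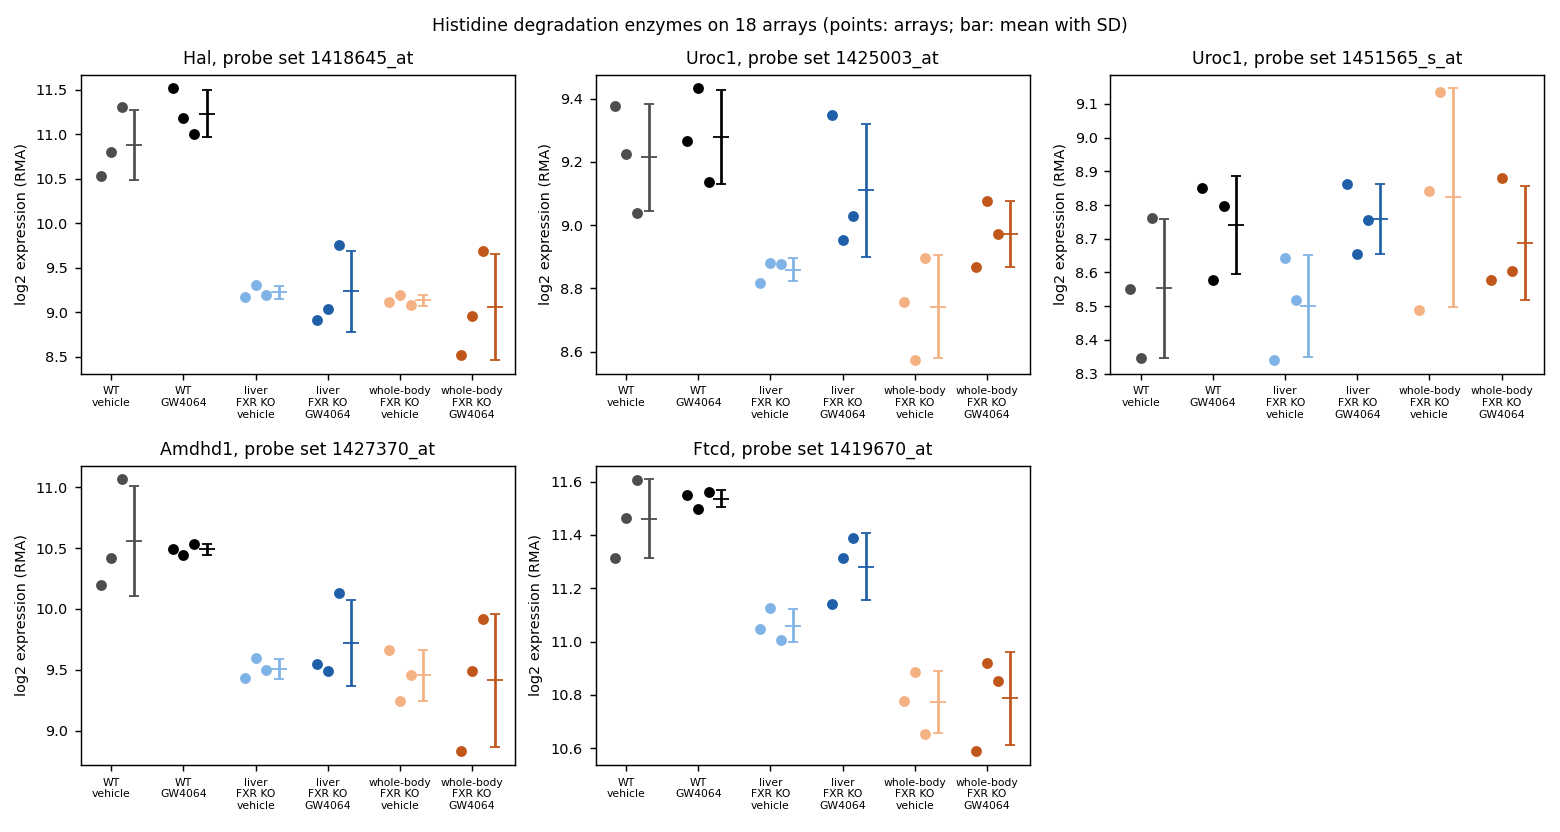
The y axes give log2 expression (RMA values) of the 5 probe sets and the x axes the 6 groups, with a point for each array and a bar for the group mean with its SD (n = 3). Hal and Amdhd1 show all knockout arrays below all WT arrays, Ftcd is lowest in the whole-body FXR KO, and the second Uroc1 probe set shows no separation.

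Counts of members among the genes that limma called (Benjamini-Hochberg adjusted p below 0.05 over the 12394 genes) are set beside the share of all genes called, and nothing is read from them because the members were selected on these arrays. In the liver FXR KO with vehicle, 2 of the 4 members (Hal and Amdhd1) were among the 109 genes called, which were 0.879% of all. In the whole-body FXR KO with vehicle, 3 of 4 (Hal, Amdhd1 and Ftcd) were among 141 genes, 1.14% of all. With GW4064, 1 of 4 (Hal) was called in the liver FXR KO against WT, where 1.06% of genes were, and 3 of 4 (Hal, Amdhd1 and Ftcd) in the whole-body FXR KO, where 4.64% were. The whole-body against the liver FXR KO with vehicle called 0 members and 0.678% of genes. Amdhd1 was no longer among the genes called with vehicle in either knockout when WT vehicle replicate 2, WT vehicle replicate 3 or any single array of the knockout was left out, which leaves 1 member in the liver FXR KO and 2 in the whole-body FXR KO. With GW4064, the same happened in the whole-body FXR KO without WT GW4064 replicate 1 or without whole-body FXR KO GW4064 replicate 1, which leaves 2 members.

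None of the 4 enzymes was among the genes called for GW4064 in any genotype. In WT livers the log2 difference from vehicle was 0.35 ± 0.26 for Hal, with a 95% interval from -0.19 to 0.90. It was -0.07 ± 0.24 for Amdhd1 (interval -0.58 to 0.44), 0.08 ± 0.10 for Ftcd (interval -0.13 to 0.29) and 0.06 ± 0.12 for Uroc1 (interval -0.18 to 0.31). The same arrays showed a response of Nr0b2 (SHP, a well-known FXR target), which rose by 1.85 ± 0.34 in WT livers (limma adjusted p = 0.0433). Nr0b2 was 7.85, 7.86 and 8.21 with vehicle and 10.84, 9.59 and 9.04 with GW4064. Its adjusted p was 0.201 without WT GW4064 replicate 1, where the difference was 1.34, and between 0.0749 and 0.145 when WT GW4064 replicate 2 or any single WT vehicle array was left out. In the liver FXR KO, Nr0b2 was 7.56, 8.01 and 8.18 with vehicle and 8.78, 9.04 and 8.66 with GW4064, higher without overlap. In the whole-body FXR KO it was 8.77, 8.16 and 8.16 with vehicle and 8.04, 7.77 and 7.04 with GW4064, lower without overlap. Neither of these differences was called by limma. In WT livers, limma called 0.194% of all genes for GW4064, 24 of 12394, of which 12 were higher and 12 lower.

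Acute-phase proteins, which the liver makes in inflammation, were at unequal levels among the WT GW4064 livers. The median of 14 such genes was 2.15, 1.43 and 0.23 above the WT vehicle mean in WT GW4064 replicates 1, 2 and 3, and between 0.07 and 0.58 above it in the knockout arrays. Hal was 11.52, 11.18 and 11.00 in the same WT arrays. The part of these genes in the Hal values was not tested.

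GW4064 minus vehicle in the liver FXR KO was 0.22 ± 0.10 for Ftcd (interval 0.01 to 0.43) and 0.25 ± 0.12 for Uroc1 (interval 0.00 to 0.50). Hal gave 0.01 ± 0.26 and Amdhd1 0.22 ± 0.24. In the whole-body FXR KO, the values were -0.08 ± 0.26 for Hal, 0.23 ± 0.12 for Uroc1, -0.04 ± 0.24 for Amdhd1 and 0.01 ± 0.10 for Ftcd. In each knockout, limma called 0 of the 12394 genes for GW4064, or 0% of all. At an unadjusted p below 0.05 it counted 622 in the liver FXR KO and 775 in the whole-body FXR KO, and the methods' t-test counted 788 and 521, with 0 after adjustment in either.

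The difference of the GW4064 effect between genotypes was also fitted. The effect on Hal in WT minus that in the liver FXR KO was 0.34 ± 0.37 (interval -0.43 to 1.11), and minus that in the whole-body FXR KO it was 0.43 ± 0.37 (interval -0.34 to 1.20). All members' intervals for both differences included 0. Over all genes, limma called 0 of 12394 (0%) for either difference, with 925 and 1017 genes at an unadjusted p below 0.05.

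**Figure D2:**
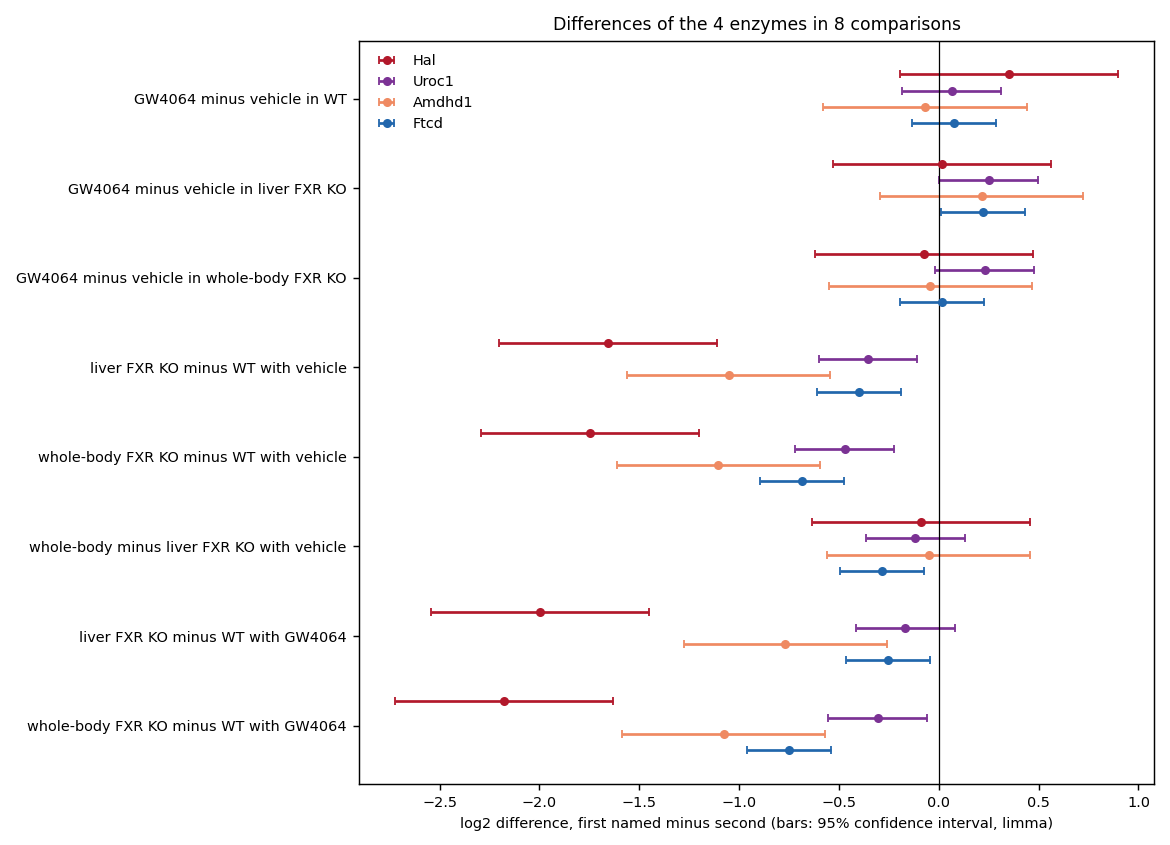
Each point is the log2 difference of an enzyme (x axis) in 1 of 8 comparisons (y axis), and bars are 95% confidence intervals from limma with 12 residual degrees of freedom. The intervals of Hal and Amdhd1 lie below 0 in all 4 comparisons of a knockout with WT and include 0 for GW4064 in each genotype.

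Replicates within a group share genotype and treatment, so their deviations from the group mean are independent of the differences between groups. Hal and Amdhd1 deviated to the same side of their group means in 13 of the 18 arrays. Pearson's r was 0.87 (permutation p = 0.00687, adjusted p = 0.0687) and Spearman's rho was 0.73 (permutation p = 0.0108, adjusted p = 0.108), both two-sided with 100000 permutations within groups. Neither passed the adjustment over the 10 pairs of probe sets. Without the 2 arrays farthest from the median of Hal, r was 0.80. Without the 2 arrays of wide spread, r was 0.88. WT vehicle replicate 3, liver FXR KO GW4064 replicate 3 and whole-body FXR KO GW4064 replicate 3 were high in both genes, and whole-body FXR KO GW4064 replicate 1 was low in both.

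Ftcd deviated with Hal at an r of 0.70 (permutation p = 0.0419, adjusted p = 0.188) and a rho of 0.62 (permutation p = 0.0400, adjusted p = 0.196), with r of 0.71 without the 2 arrays farthest from the median. For Ftcd and Amdhd1, r was 0.69 (permutation p = 0.0563, adjusted p = 0.188), rho was 0.62 (adjusted p = 0.196) and r fell to 0.49 without the 2 farthest arrays. The main Uroc1 probe set had r values of -0.26 with Hal, -0.15 with Amdhd1 and -0.50 with Ftcd, with adjusted permutation p-values of 0.237 or more. Deviations in 1 group sum to 0, and the 3 genes shared each array and its RNA.

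**Figure D3:**
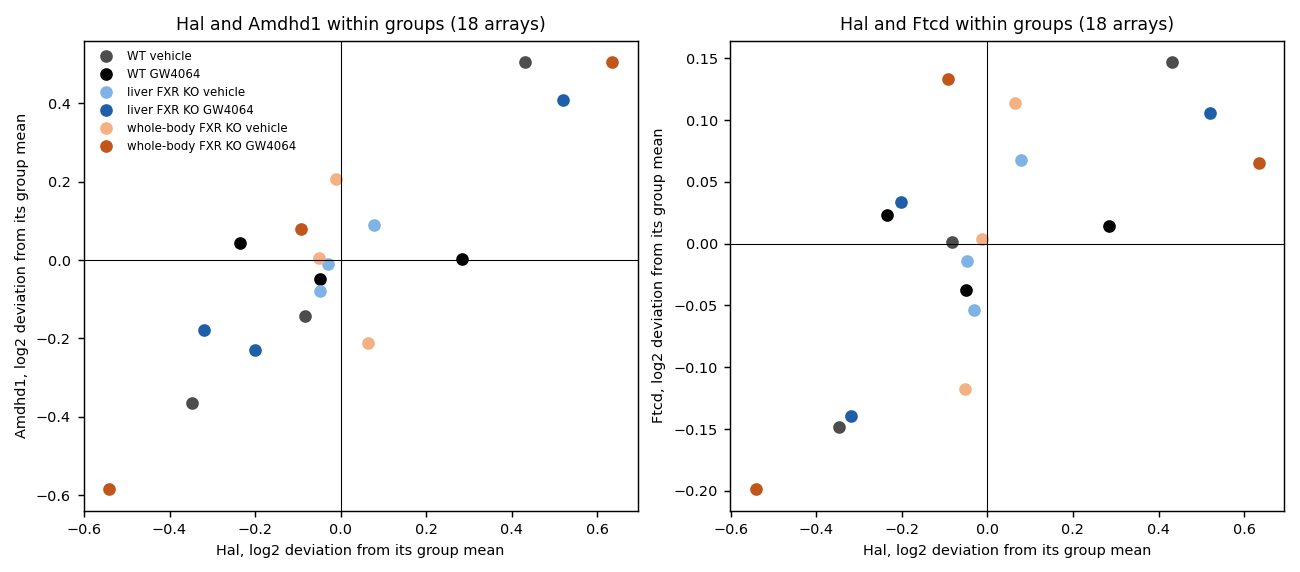
Deviations from the group mean in log2 units are plotted for Hal (x axes) against Amdhd1 (left y axis) and Ftcd (right y axis), with 1 point for each of the 18 arrays, coloured by group. Points run from lower left to upper right in both panels, and the largest deviations of Hal were in the GW4064 groups of both knockouts and in WT vehicle.

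The genes whose pattern was most like each enzyme were found by Pearson's correlation over the 18 arrays among 2469 genes with an SD of at least 0.2. These values are a description, because they include the differences between groups. Hal was most like Cdhr5 (a protocadherin of the brush border, r = 0.95), Amdhd1 (r = 0.94) and Nr1h4 itself (r = 0.93). Cdhr5 was at 9.43 ± 0.12 in WT vehicle livers, at 8.50 ± 0.06 in the liver FXR KO and at 8.40 ± 0.08 in the whole-body FXR KO with vehicle (SD, n = 3). Amdhd1 was most like Hal, Gpat4 (an acyltransferase of glycerolipid synthesis, r = 0.90) and Ctnnbip1 (an inhibitor of beta-catenin, r = 0.89). Ftcd was most like Ctnnbip1 (r = 0.89), Cadps2 (a secretory vesicle protein, r = 0.88) and Nop16 (a nucleolar protein, r = 0.88). Uroc1 was less like any gene, with Wasf1 (an actin regulator, r = 0.84), Rprd1a (r = 0.79) and Nectin3 (an adhesion protein, r = 0.78) at the top. Among the members, Amdhd1 and Ftcd had an r of 0.85, Hal and Ftcd 0.84, and Uroc1 between 0.59 and 0.63 with the other three.

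Genes around Nr1h4 were measured because Hal and Amdhd1 lie close to the gene that was deleted. Within 10 Mb on either side, 158 other genes were measured, and their median log2 difference was -0.02 in the liver FXR KO and -0.03 in the whole-body FXR KO with vehicle. Of the 158, limma called 3 (1.90%) in the liver FXR KO, beside 0.879% of all genes. Nr2c1, an orphan nuclear receptor 4.61 Mb from Nr1h4, fell by 0.88 (adjusted p = 0.000323), and Nedd1, a centrosome protein, fell by 0.41 (adjusted p = 0.0380). Ikbip rose by 0.51 (adjusted p = 0.0437). Called in the whole-body FXR KO were 2 of the 158 (1.27%), where 1.14% of all genes were. These were Ikbip, which rose by 0.59 (adjusted p = 0.0157), and Nfyb, a subunit of a CCAAT-binding factor, which fell by 0.55 (adjusted p = 0.0346). Of these 5 calls, that of Nr2c1 was kept when any single array was left out.

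None of the 158 neighbours had a log2 difference as low as that of Hal or Amdhd1 with vehicle in either knockout. Hal and Amdhd1 were selected with results of these arrays known, so this order is a description. With GW4064, 1 neighbour was lower than Hal and 3 were lower than Amdhd1 in the liver FXR KO against WT, and 0 and 2 in the whole-body FXR KO. There limma called 4 (2.53%) and 9 (5.70%) of the neighbours, beside 1.06% and 4.64% of all genes. The part of the neighbourhood in the Hal and Amdhd1 values was not tested.

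**Figure D4:**
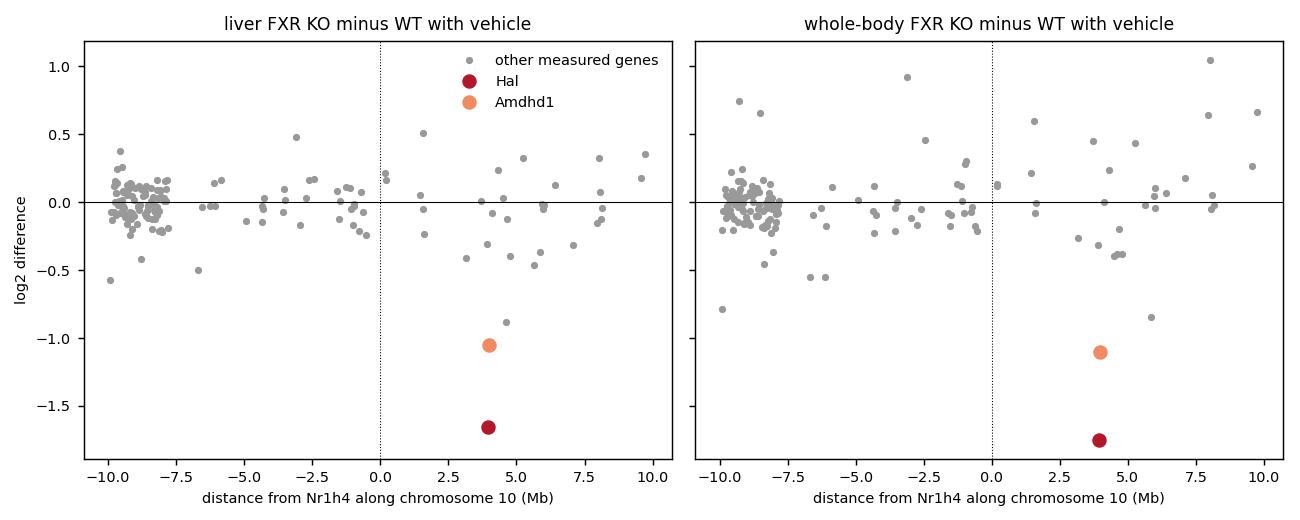
The x axes give the distance of each measured gene from Nr1h4 along chromosome 10 in Mb, and the y axes its log2 difference from WT with vehicle in the liver FXR KO (left) and the whole-body FXR KO (right). Hal and Amdhd1 are the coloured points at 3.96 and 3.99 Mb and lie below all 158 other genes in both panels. Both were selected with results of these arrays known.

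Histidine also has other fates, namely transport, histamine synthesis, dipeptides and charging of its tRNA. Of 13 such genes, 11 were measured, and limma called 0 of them in any of the 10 comparisons. At an unadjusted p below 0.05, 0 of the 11 passed in the liver FXR KO with vehicle and 2 in the whole-body FXR KO, and the methods' t-test gave 0 and 0. Slc38a3, a transporter that brings glutamine and histidine into hepatocytes, was -0.25 ± 0.13 from WT in the liver FXR KO (adjusted p = 0.447) and -0.17 ± 0.13 in the whole-body FXR KO (adjusted p = 0.607) with vehicle. Hdc, which makes histamine from histidine, was -0.14 ± 0.12 (adjusted p = 0.695) and -0.26 ± 0.12 (adjusted p = 0.344).

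The folate one-carbon list, which holds enzymes, transporters and a receptor of the folate pool that Ftcd feeds, had 18 of 27 genes measured. In the liver FXR KO with vehicle, 1 of the 18 was lower and 0 were higher by limma, where 0.879% of all genes were called. The list's median was -0.08, against -0.01 over all genes. At an unadjusted p below 0.05, limma passed 5 of the 18 and the methods' t-test 6, beside 1558 and 1467 of all 12394 genes. The gene called was Sardh, which oxidises sarcosine in mitochondria and passes its methyl group to folate, and it fell by 0.75 ± 0.15 SE (adjusted p = 0.0213). Sardh was 11.32, 11.39 and 11.46 in WT vehicle livers and 10.42, 11.02 and 10.48 in the liver FXR KO, without overlap. Its adjusted p was between 0.0695 and 0.124 when WT vehicle replicate 2 or 3, or liver FXR KO vehicle replicate 1 or 3, was left out. Sardh was -0.56 ± 0.15 in the whole-body FXR KO with vehicle (adjusted p = 0.0899), where 0 of the 18 were called. There 4 of the 18 passed an unadjusted p of 0.05 by limma and 3 by the methods' t-test. Of all 12394 genes, 1645 and 1420 did. Mthfd1, which converts between one-carbon forms of tetrahydrofolate, was -0.37 ± 0.15 (adjusted p = 0.289) in the liver FXR KO and -0.21 ± 0.15 (adjusted p = 0.580) in the whole-body FXR KO. Aldh1l1, which oxidises formyl-tetrahydrofolate, was -0.42 ± 0.12 (adjusted p = 0.120) and -0.14 ± 0.12 (adjusted p = 0.659). Gnmt, a folate-binding methyltransferase of glycine, was -0.26 ± 0.09 (adjusted p = 0.215) and -0.04 ± 0.09 (adjusted p = 0.896).

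With GW4064, 2 folate genes were higher in the whole-body FXR KO than in WT, where 4.64% of all genes were called. Fpgs, which adds glutamates to folate, rose by 0.56 ± 0.12 (adjusted p = 0.0144), and Shmt1, which moves one-carbon units from serine to folate, rose by 0.51 ± 0.12 (adjusted p = 0.0217). Without the 2 arrays of wide spread, the adjusted p was 0.102 for Fpgs and 0.0536 for Shmt1, and 0 of the 18 were called. In the liver FXR KO against WT with GW4064, 0 of the 18 were called. At an unadjusted p below 0.05, limma passed 4 of the 18 and the methods' t-test 2, beside 1735 and 1124 of all 12394 genes.

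The list of enzymes that break down other amino acids had 35 of 42 genes measured. It also holds Dpys and Upb1, which belong to pyrimidine breakdown. Differences from WT with vehicle were below 0 for 30 of the 35 in the liver FXR KO and the median was -0.20, against -0.01 over all genes. By limma, 2 were lower and 0 were higher, where 0.879% of all genes were called. At an unadjusted p below 0.05, limma passed 13 of the 35 and the methods' t-test 13, beside 1558 and 1467 of all 12394 genes. Cth, which splits cystathionine into cysteine, fell by 0.93 ± 0.19 (adjusted p = 0.0230), and Upb1, which breaks down beta-ureidopropionate from pyrimidines, fell by 0.37 ± 0.08 (adjusted p = 0.0412). Cth was 12.77, 12.87 and 13.23 in WT vehicle livers and 11.99, 12.02 and 12.06 in the liver FXR KO, without overlap. In the absence of single arrays the count was 0 or 1. It was 1 (Cth) without WT vehicle replicate 1 and 0 without any other array of either group.

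In the whole-body FXR KO with vehicle, 18 of the 35 differences were below 0, the median was 0.00 and limma called 0. At an unadjusted p below 0.05, limma passed 5 of the 35 and the methods' t-test 4, beside 1645 and 1420 of all 12394 genes. Cth was -0.29 ± 0.19 there (adjusted p = 0.535). Glud1, which takes the glutamate that the histidine route yields to ammonia and ketoglutarate, was 0.18 ± 0.09 (adjusted p = 0.383) in the liver FXR KO and 0.29 ± 0.09 (adjusted p = 0.135) in the whole-body FXR KO. Tat, the tyrosine aminotransferase, was -0.22 ± 0.17 (adjusted p = 0.671) and 0.18 ± 0.17 (adjusted p = 0.705). The same WT vehicle arrays entered both comparisons. In the whole-body minus the liver FXR KO with vehicle, 5 of the 35 differences were below 0 and the median was 0.20. There limma called 0 of the 35, beside 0.678% of all genes. At an unadjusted p below 0.05, limma passed 16 and the methods' t-test 16, beside 1507 and 1574 of all 12394 genes.

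With GW4064 in both genotypes compared, 3 of the 35 were lower in the liver FXR KO than in WT and 2 in the whole-body FXR KO. In either, 0 were higher. Of all genes, 1.06% and 4.64% were called in these comparisons. Prodh, the first enzyme of proline breakdown, fell by 0.74 ± 0.14 (adjusted p = 0.0140) in the liver FXR KO and by 0.68 ± 0.14 (adjusted p = 0.00973) in the whole-body FXR KO. Kmo, an enzyme of tryptophan breakdown, fell by 0.55 ± 0.10 (adjusted p = 0.0142) and by 0.86 ± 0.10 (adjusted p = 0.000181). Hibch, from valine breakdown, fell by 0.43 ± 0.09 in the liver FXR KO (adjusted p = 0.0317). Without the 2 arrays of wide spread, 1 gene stayed called in each, Prodh in the liver FXR KO and Kmo in the whole-body FXR KO. In the whole-body FXR KO against WT with GW4064, where 4.64% of all genes were called, some cell markers were called too. Higher were 1 of 5 endothelial markers (Lyve1) and 2 of 5 stellate markers (Col1a1 and Dcn). Dcn is also among the neighbours of Nr1h4 counted above. Lower was 1 of 3 markers of enterocytes, which are cells of the gut (Fabp2), while the median difference of those 3 was -0.02. Their levels were very unequal, from 3.71 to 10.57 in WT GW4064 arrays and 3.70 to 9.62 in those of the whole-body FXR KO. The mean of those 3 can therefore move with 1 gene. The 5 stellate markers averaged 7.07 to 7.15 in the whole-body FXR KO GW4064 arrays, 6.73 to 6.89 in those of the liver FXR KO and 6.12 to 6.72 in those of WT. For the 5 endothelial markers these means were 7.21 to 7.48, 7.10 to 7.30 and 6.57 to 7.05, and for the 3 enterocyte markers 5.74 to 6.25, 6.22 to 6.28 and 6.29 to 6.51. None of these 3 lists overlapped between either knockout and WT with GW4064, and 0 of their genes were called in the liver FXR KO. Means of the 4 Kupffer cell markers did overlap, at 7.05 to 7.98, 6.97 to 7.25 and 6.34 to 7.56 in the same order. How often lists of such size separate by group was not examined. The 4 keratinocyte markers averaged 4.87 to 4.94 in the whole-body FXR KO and 4.94 to 5.10 in WT with GW4064. These groups are the ones in which Hal and the other members were compared with GW4064, and the part of the markers in the enzyme values was not tested.

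**Figure D5:**
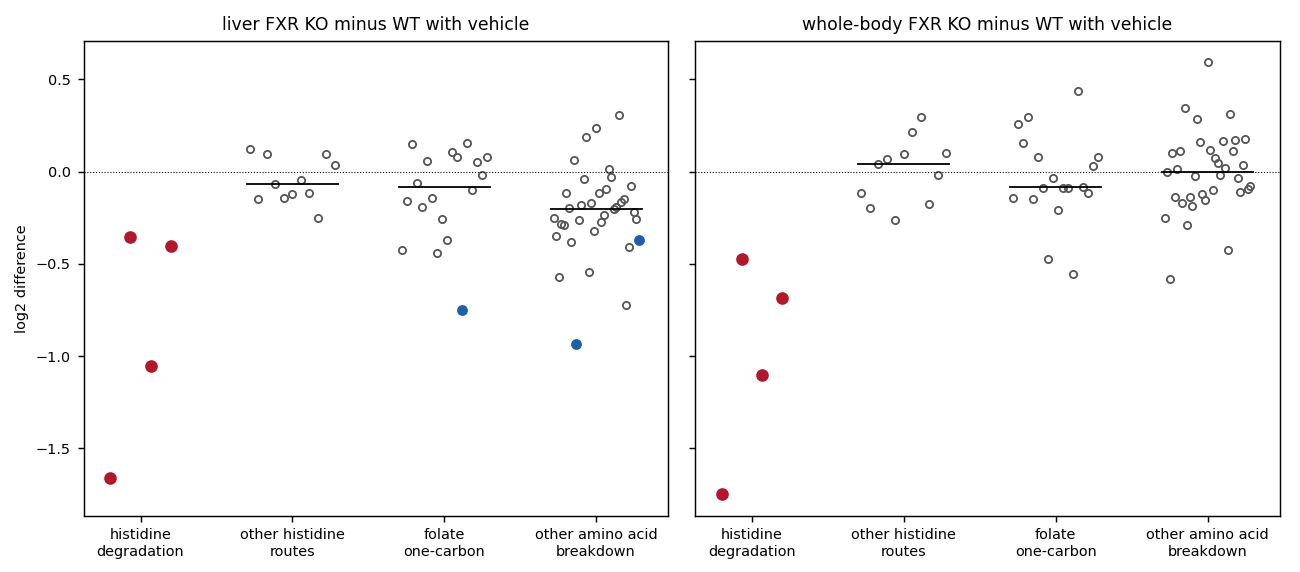
Log2 differences from WT with vehicle (y axes) are shown for the 4 histidine degradation enzymes and 3 lists of related genes (x axes) in the liver FXR KO (left) and the whole-body FXR KO (right), with lines at the list medians and filled blue points for list genes that limma called. Hal and Amdhd1 lie below every gene of the 3 lists in both panels, and the called list genes are Sardh, Cth and Upb1 in the liver FXR KO. The 4 enzymes were selected with results of these arrays known.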

How the data were processed

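Livers were profiled on 18 arrays in 6 groups of 3. The deposited values are log2 expression from RMA, which the authors used for background correction, quantile normalisation and summary into 22690 probe sets; the version is not given in the sources used here. The probe sets are those of a 3′ array, while the paper's methods name another array and a lower dose given more times to fasted wild-type mice, so the labels were followed. Of the probe sets, 20393 had 1 gene symbol, 691 several and 1606 none. Where a gene had several, that of highest mean level stood for it (12394 genes), and all probe sets of the members were described.

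Group means were fitted in R 4.3.3 by the lmFit and eBayes functions of limma 3.58.1 (12 residual degrees of freedom, Benjamini-Hochberg adjustment over all genes, threshold 0.05) after a check on simulated data, in 10 comparisons. Standard errors and 95% intervals come from this fit. The number of arrays limits the precision. Figures were drawn with matplotlib 3.10.9. The members and lists were chosen with earlier results of these data known. Named genes were the members, Nr1h4, Nr0b2, the 3 genes most like each member, up to 4 called genes from each list, and Hdc, Slc38a3, Mthfd1, Aldh1l1, Gnmt, Glud1, Tat and Sds, the last of which had no probe set of its own; the neighbours of Nr1h4 were named after their values were seen. Alternatives were another prior, array weights, median centring, quantile normalisation, removal of the dimmest 40% of genes, a fit on every probe set, averaged probe sets, only the groups compared, the methods' t-test, a replicate block and each array left out.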

Additional observations from a re-analysis of the deposited data

How the results depend on the processing

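Of 720 alternative values of the members' log2 differences, 715 moved by less than the spread between replicates. The other 5 were all Uroc1 with the mean of its probe sets, where the differences from WT with vehicle were -0.20 in the liver FXR KO and -0.10 in the whole-body FXR KO. No called difference changed sign. Some that were not called did: with single arrays left out, the GW4064 difference of Amdhd1 in WT ranged from -0.25 to 0.18, that of Hal from -0.25 to 0.17 in the liver FXR KO and from -0.39 to 0.20 in the whole-body FXR KO. With the mean of its probe sets, Uroc1 in the whole-body minus the liver FXR KO with vehicle was 0.10 in place of -0.12. In the liver FXR KO with vehicle, the count of members called went from 2 to 1 (Hal) with a trended and robust prior, median centring, all probe sets or the mean of probe sets, and was 1 to 2 with single arrays left out. The methods' t-test called 0 members after adjustment in each of the 4 comparisons of a knockout with WT. At 3 against 3 it called at most 5 of all genes. Before adjustment it counted 4 members in both knockouts with vehicle, and 3 and 4 with GW4064. Of all 12394 genes, it then counted 1467 in the liver FXR KO and 1420 in the whole-body FXR KO with vehicle, and 1124 and 1365 with GW4064. With single arrays left out, the folate count was 0 to 1 for GW4064 in WT livers (Mthfd1 without WT GW4064 replicate 3), 0 to 1 in the liver FXR KO with vehicle, 0 to 1 with GW4064 (Shmt1 without WT GW4064 replicate 3, Aldh1l1 without liver FXR KO GW4064 replicate 3) and 0 to 2 in the whole-body FXR KO with GW4064 (0 without WT GW4064 replicate 1). That of other amino acid breakdown was 0 to 1 in the liver FXR KO with vehicle, 0 to 3 with GW4064 (0 without liver FXR KO GW4064 replicate 2) and 2 to 4 in the whole-body FXR KO with GW4064. That of other histidine routes was 0 to 1 in the whole-body FXR KO with GW4064 (Hnmt without whole-body FXR KO GW4064 replicate 2). The t-test gave 0 for both lists wherever limma called a gene. With only the compared groups, the folate count was 0 in the liver FXR KO with vehicle, 2 (Sardh and Shmt1) in the whole-body FXR KO with vehicle and 0 there with GW4064, and the other list gave 0 in the liver FXR KO with GW4064, 1 (Gpt2) in the whole-body FXR KO with vehicle and 1 (Kmo) with GW4064. In the whole-body FXR KO with vehicle, array weights or leaving out the 2 arrays of wide spread, an alternative chosen after seeing the data, gave 1 folate gene (Shmt1). There 1 gene of the other list (Kmo) was called with the trended and robust prior, array weights, quantile normalisation, the 40% of genes with the lowest mean removed, or without those 2 arrays. Without them, with GW4064, the other list gave 1 in each knockout and the folate list 0 in the whole-body FXR KO. Quantile normalisation gave 4 there. Of 45 same-numbered pairs of arrays from different groups, 13 had deviations correlated over 0.1 (range -0.23 to 0.34). Pairs with different numbers were not examined, so these values cannot show whether same-numbered replicates pair. With a replicate block, 2 members were called in the liver FXR KO and 3 in the whole-body FXR KO with vehicle, as without it, and 5 genes of other amino acid breakdown in the whole-body FXR KO with GW4064 in place of 2. The cause of these changes was not tested. With 3 arrays in a group, the SE of a member's difference between 2 groups ranged from 0.10 (Ftcd) to 0.26 (Hal), and that of a difference between 2 GW4064 effects from 0.14 to 0.37, which limits what could be detected.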
